A study of Mus musculus with 4 samples.

Results

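The genes of the cytoplasmic ribosomal proteins were picked by symbol from the protein-coding genes of the GENCODE M21 annotation of the mouse genome (GRCm38/mm10). Genes named Rpl or Rps with a number were taken, together with Rplp0, Rplp1, Rplp2 and Rpsa, and kinase genes of the Rps6k family and Rps19bp1 were left out. This gave 91 of 21951 protein-coding genes, 34 for the small ribosomal subunit and 57 for the large subunit and its stalk. A read cluster was counted for one of these genes when its centre lay in the gene on the same strand.

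Ribosomal proteins fold around ribosomal RNA to build the subunits that carry out translation, and their mRNAs are among the most abundant in a cell. Most of these mRNAs are short and begin with a terminal oligopyrimidine tract, a C followed by further pyrimidines, through which the mTOR pathway sets how much of them is translated, and many of the genes carry small nucleolar RNAs (snoRNAs), the guides of ribosomal RNA modification, in their introns. In testis, retained gene copies such as Rpl10l and Rpl39l are transcribed in germ cells, where the X-linked parent genes fall silent during meiosis, while IGF2BP3 is an RNA-binding protein of the insulin-like growth factor 2 mRNA-binding family, best known in embryonic tissue and tumours.

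The study crosslinked proteins to RNA with ultraviolet light in triturated testes of wild type C57BL/6 mice aged 8 weeks, and read the RNA that came down with an IGF2BP3 antibody by eCLIP-seq. For each of 2 replicates there was an immunoprecipitated library (IP) and a size-matched input library (SMInput), made from the same lysate without the antibody, so that 4 samples were used. Replicate 1 had 5133438 usable IP reads and 8706391 usable SMInput reads, and replicate 2 had 4637612 and 16696122. The deposited tables held 337234 and 216354 clusters, each with the log2 of the IP over the SMInput share of reads (log2 fold change) and the −log10 of its P value. The testis suspension held germ cells and somatic cells together, so few cells with much bound RNA and many cells with little cannot be told apart. Clusters lay in genes of germ cells, such as the spermatid genes Prm1 (7 clusters in each replicate) and Smcp (17 in each) and the germ cell gene Ddx4 (75 and 76), and in genes of somatic cells, such as the Leydig cell gene Insl3 (15 and 14). The haemoglobin genes Hba-a1 and Hbb-bs had 1 and 2 clusters in replicate 1 and 0 in replicate 2.

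IGF2BP3 eCLIP clusters were found along nearly the whole set of ribosomal protein mRNAs, but few of them were strongly enriched over the input. Clusters lay in 84 genes in replicate 1 and 83 in replicate 2, 701 and 619 in number. The genes with no cluster in either replicate were 7, of which Rpl10-ps3, Rpl36-ps4, Rpl36a-ps1, Rpl9-ps1, Rpl9-ps6 and Rps12-ps3 carry pseudogene-like symbols, and the other was Rpl3l, a copy of Rpl3 known from skeletal and heart muscle. A cluster was called significant when its log2 fold change and its −log10(P) were both 2 or more. In replicate 1, 25 of the 701 clusters (3.57%) were significant, beside 4.92% of all clusters and 4.91% of those in protein-coding genes. In replicate 2, 43 of 619 (6.95%) were, beside 13.2% and 13.1%. Counted by gene, 18 ribosomal protein genes (21.4% of those with a cluster) had a significant cluster in replicate 1 and 25 (30.1%) in replicate 2, beside 40.8% and 62.8% of all protein-coding genes with a cluster. Together 34 of 84 genes (40.5%) had one in either replicate, beside 61.7% of all protein-coding genes with a cluster, and 9 of 83 (10.8%) had one in each, beside 39.1%. Shares by gene, here and below, are not matched for the number of clusters per gene, which was lower in ribosomal protein genes. All protein-coding genes had 325667 clusters in 14051 genes in replicate 1 and 209699 in 12841 in replicate 2.

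Over all regions together, the clusters of ribosomal protein genes held more reads and lower fold changes than those of all protein-coding genes. Their median log2 fold change was 0.60 in replicate 1 and 0.81 in replicate 2, beside 1.46 and 1.53 over clusters of all protein-coding genes. These sets differ in their regions, as clusters of all protein-coding genes lay more often in introns and those of ribosomal protein genes include snoRNAs. In the CDS alone the medians were 0.61 and 0.85, beside 0.76 and 0.93, and in 3′UTRs 1.24 and 1.59, beside 1.76 and 1.85. In 5′UTRs they were 0.50 and 1.20, beside 0.76 and 0.98, so that replicate 2 went the other way. In introns outside snoRNAs they were 2.08 and 1.93, beside 1.98 and 1.85 for introns of all protein-coding genes. The −log10(P) was listed at 0, the entry of every ribosomal protein cluster with a log2 fold change of 0 or less and of 4 and 2 clusters between 0 and 0.18, for 27.8% and 19.7% of them, beside 10.7% and 7.5%. The median of the recovered IP and SMInput reads per cluster was 28 and 36, beside 7 and 10 for protein-coding genes. Another 84 and 121 clusters of ribosomal protein genes passed the P value threshold with a log2 fold change under 2. Few reads stood behind the significant ones, which held 7 to 50 IP reads in replicate 1, with a median of 16, and 4 to 52 in replicate 2, with a median of 14. In replicate 2, 14 of the significant clusters had fewer than 10 IP reads, and in replicate 1, 4 did.

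Genes of both subunits had clusters. Small-subunit genes had 272 and 214 clusters, with median log2 fold changes of 0.60 and 0.79, and large-subunit genes had 429 and 405, with medians of 0.60 and 0.83. Significant clusters numbered 6 and 16 for the small subunit, 2.21% and 7.48%, and 19 and 27 for the large subunit, 4.43% and 6.67%. Significant clusters of the replicates that overlapped lay in 7 genes of the large subunit and in 0 of the small subunit, beside 21.3% of all protein-coding genes with overlapping clusters. The difference between the subunits was not tested.

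The mRNAs are short and much of their sequence is found elsewhere in the genome. Their main transcripts had a median length of 751.0 bases, beside 2450.0 for all protein-coding genes, with a median 5′UTR of 88.0 and a median 3′UTR of 71.0 bases. A median of 62.8% of all windows of 50 bases of an mRNA had an exact copy elsewhere in the genome, and 58 of the 91 genes had such copies for over 50% of their windows. Rps27 had copies for 99.7% of its windows, while Rpl39l had 0%. Of the annotated pseudogenes with a ribosomal protein symbol, 301 in all, 14 had a cluster in replicate 1 and 1 in replicate 2, and these 22 and 3 clusters included 1 and 0 significant ones. The part of such copies in the number of clusters was not tested. Exon clusters per kilobase of mRNA and the share of copied windows had a Pearson's r of 0.265 in replicate 1 and 0.201 in replicate 2 across the 91 genes, which are not independent of each other.

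The coding sequence (CDS) held most of the clusters. In replicate 1, 435 clusters (62.1%) lay in the CDS, 61 in the 5′UTR, 44 in the 3′UTR and 157 in introns, and in replicate 2 these were 411 (66.4%), 66, 34 and 106. Over all protein-coding genes the CDS took 27.4% and 34.8% of clusters and introns 57.9% and 46.8%. By these labels, the 3′UTR nevertheless had the highest share of significant clusters within ribosomal protein genes, 4 of 44 (9.09%) and 8 of 34 (23.5%). For 3′UTRs of all protein-coding genes the shares were 19.4% and 34.4%. A base that is 3′UTR in any transcript was counted as 3′UTR, and 12 and 13 of the clusters of ribosomal protein genes, with 0 and 4 of the significant ones, had their centre inside the CDS of the gene's main transcript. Without them 4 of 32 (12.5%) and 4 of 21 (19%) were significant. In the 5′UTR 4 of 61 (6.56%) and 8 of 66 (12.1%) were significant, beside 5.09% and 8.63%. In the CDS 15 of 435 (3.45%) and 22 of 411 (5.35%) were, beside 5.27% and 7.94%. In introns 2 of 157 (1.27%) and 5 of 106 (4.72%) were, beside 1.92% and 10.7%. Of these intron clusters 106 and 84 lay in snoRNAs, and 0 of them were significant. Outside snoRNAs 2 of 51 (3.92%) and 5 of 22 (22.7%) were. In replicate 2 this is above the 19% of 3′UTR clusters outside the main CDS, so the first place of the 3′UTR rests on its labels.

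Among clusters labelled CDS, median fold changes were highest in the part of the coding sequence next to the stop codon. Left out here were 12 and 13 clusters labelled 3′UTR with their centre inside the CDS of the main transcript, 0 and 4 of them significant. Cluster numbers and medians by part therefore depend on these labels. With the CDS split into 4 equal parts from the start codon, replicate 1 had 140, 108, 97 and 89 clusters with median log2 fold changes of 0.51, 0.52, 0.56 and 0.95. Replicate 2 had 127, 104, 92 and 87 clusters with medians of 0.70, 0.63, 0.94 and 1.11. By these labels, the last part had the fewest clusters and the highest median in both replicates, with 7 and 9 significant clusters. The parts before it had 3, 1 and 4 in replicate 1 and 5, 2 and 5 in replicate 2. Over the whole CDS of all protein-coding genes 5.27% and 7.94% of clusters were significant. No test was made of this order. Values by part are not given for other genes, so the order is not shown to be particular to ribosomal protein mRNAs.

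With each cluster of replicate 1 paired with the cluster of replicate 2 that shares most bases with it, clusters significant in both replicates formed 12 pairs in the 7 genes Rpl31, Rpl24, Rpl15, Rpl10l, Rpl3, Rplp1 and Rpl11. These were 12 of 530 pairs (2.26%), beside 6.4% of all 83829 pairs, and 7 of 83 genes with overlapping clusters (8.43%), beside 21.3% of all protein-coding genes with overlapping clusters. With every overlapping partner counted there were 15 pairs in the same genes. Each of the 12 had its IP and SMInput reads recovered from the listed values, with an exact 95% Clopper-Pearson interval of the log2 fold change that covers counting error only. The widest interval, 0.61 to 9.06 for Rpl15 in replicate 1, rests on 7 IP reads and 1 SMInput read. The pairs with at least 10 reads in each replicate, 11 of the 12, have a mean and a standard error from limma, in which the mean log2 fold change of both replicates is compared with 0 against a variance shared over all sites, and p values are adjusted by Benjamini-Hochberg. Since the pairs were chosen for passing both thresholds in both replicates, no test of them is given.

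Rpl31, a protein of the large subunit at the rim of the exit tunnel, had 3 of these pairs at its 5′ end. The 5′UTR cluster at chr1:39367914-39367934 on the plus strand had a log2 fold change of 2.76 in replicate 1 (44 IP and 11 SMInput reads, interval 1.79 to 3.86). It overlapped 3 significant clusters of replicate 2. The one sharing most bases had 2.89 (35 and 17 reads, interval 2.02 to 3.82), and the others had 2.73 and 2.66. The mean with the first of these was 2.83 with a standard error of 0.34. The cluster's right end in replicate 1 was at 39367934, where an exon ends in some annotated transcripts. In those the next exon starts at 39368149, while the first exon of the main transcript spans both places. From there on, clusters at 39368149-39368175 and 39368176-39368237 had 2.67 and 2.24 in replicate 1 and overlapped 1 cluster with 2.12 in replicate 2.

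Rpl24, a large-subunit protein that forms a bridge to the small subunit, had 3 pairs, in exons 4, 5 and 6 of its 6 exons. On the plus strand of chr16 these were at 55969580-55969647, 55970112-55970176 and 55971311-55971399. Log2 fold changes were 2.35, 2.44 and 2.76 in replicate 1 and 2.49, 2.75 and 2.99 in replicate 2. These rested on 12, 16 and 8 IP reads in replicate 1 and 14, 15 and 11 in replicate 2. The same stretches also lie in Gm28037, an annotated processed transcript of the same strand, so the reads do not tell the transcripts apart. Without clusters that also lie in another gene, 6 genes had overlapping significant clusters.

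Rpl11, which with Rpl5 and the 5S ribosomal RNA restrains Mdm2 when ribosome assembly fails, had pairs in exons 5 and 4 of 6. At chr4:136050280-136050342 on the minus strand the log2 fold change was 2.26 in replicate 1 and 2.07 in replicate 2, and at chr4:136051171-136051211 it was 2.29 and 2.03. The median over all clusters of Rpl11 was 2.07 in replicate 1 (10 clusters) and 2.05 in replicate 2 (14 clusters), well above the medians of 0.60 and 0.81 over all ribosomal protein clusters. Its partner Rpl5 had 12 and 14 clusters with medians of 1.08 and 0.47 (1.18 and 0.56 without those in snoRNAs), and 0 of them were significant.

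Rpl3, a core large-subunit protein near the peptidyl transferase centre, had the highest mean at any tested site of a ribosomal protein gene. In exon 9 of 10 at chr15:80078094-80078098 on the minus strand it had a log2 fold change of 2.50 in replicate 1 (10 IP and 3 SMInput reads) and 3.35 in replicate 2 (17 and 6 reads), with a mean of 2.92 and a standard error of 0.49. A second cluster of replicate 2 in exon 8, at 80078331-80078342, was listed with the same fold change and the same read numbers. Rpl15, another large-subunit protein, had a 5′UTR pair at chr14:18270959-18270995 on the minus strand with 3.57 (7 IP reads and 1 SMInput read) and 2.72 (11 and 6 reads), too few for limma. Rplp1, an acidic protein of the stalk, had a pair at the 5′ end of exon 3 of 3, at chr9:61913509-61913521 on the minus strand, with 2.26 (31 IP and 11 SMInput reads) and 2.41 (31 and 21 reads).

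Rpl10l was the one gene whose overlapping significant clusters lay in the 3′UTR. This gene without introns stands in for X-linked Rpl10 in male meiosis. Its 3′UTR cluster had a log2 fold change of 2.85 in replicate 1 (34 IP and 8 SMInput reads, interval 1.71 to 4.17). In replicate 2 it had 2.52 (35 and 22 reads, interval 1.71 to 3.36), and the mean of 2.68 had a standard error of 0.35. The clusters in its coding sequence were lower, between 0.56 and 0.97 over both replicates. Rpl10 itself had 8 and 3 clusters with medians of 0.76 and 0.26 (0.76 and 0.47 without those in a snoRNA), and 0 were significant.

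To show the RNA bound at sites in the coding sequence, 30 bases around the middle of the stretch shared by both replicates were read from the genome, on the strand of the gene. They lie at chr16:55971331-55971360 (plus) for Rpl24, chr4:136050297-136050326 (minus) and chr4:136051177-136051206 (minus) for exons 5 and 4 of Rpl11, and chr1:39368183-39368212 (plus) for Rpl31. Capitals mark CACA or GGAC, short motifs searched because they are named for this protein family.
Rpl24 exon 6: taaacaaaagattgtgaagcctgtgaaggt
Rpl11 exon 5: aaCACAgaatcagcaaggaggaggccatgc
Rpl11 exon 4: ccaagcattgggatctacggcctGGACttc
Rpl31 CDS: agggccgttctgccatcaacgaggtggtga

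Of the 12 windows in ribosomal protein genes, 1 held CACA, 1 held GGAC and 0 held AAACC or GAACA. Over all 83829 pairs of overlapping clusters the shares were 9.17% for CACA, 10% for GGAC, 1.62% for AAACC and 2.23% for GAACA. Over the 5362 of these that were significant in both replicates they were 12.6%, 7.96%, 2.31% and 1.42%. In windows of 100 bases around CDS clusters of ribosomal protein genes, GGAC was in 30.6% and 32.4% and CACA in 34.3% and 33.6%, beside 33% and 32.8% and 34.7% and 34% for CDS clusters of other genes. In 5′UTR clusters GGAC was in 21.3% and 19.7%, beside 38.3% and 37.7% in other genes, while CACA was in 18% and 19.7%, beside 20.6% and 19.6%. In 3′UTR clusters, 44 and 34 in number, GGAC was in 34.1% and 26.5%, beside 24.5% and 23.7%, and CACA in 40.9% and 47.1%, beside 35% and 33.3%. A match is only the presence of these letters.

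Among 5′UTR clusters, a larger share of windows held a pyrimidine run in ribosomal protein genes than in other genes. This difference was not tested, and several windows can come from 1 gene, as in Rpl31. The search for runs of at least 8 bases of C or T in windows of 30 bases was chosen after values had been seen. A run was in 14 of 61 windows of 5′UTR clusters of ribosomal protein genes in replicate 1 (23%) and in 16 of 66 in replicate 2 (24.2%), beside 12.8% and 13.8% in other genes. Of the significant 5′UTR clusters, 2 of 4 and 6 of 8 had such a run, beside 18.2% and 17.8% in other genes. Altogether 8 ribosomal protein genes had a significant 5′UTR cluster in either replicate, and 6 of them had a run. The exceptions were Rpl29 and Rpl35, with log2 fold changes of 2.26 and 3.57 in replicate 1. By annotation, 11 of the 91 main transcripts (12.1%) started with C and 4 pyrimidines, beside 2.31% of all protein-coding genes.

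The windows with a run are given here to show its letters. Within these windows, none of the runs begins at an annotated transcript start. Counted from the nearest one, the first base of the run in the window is at −23 in Rpl31, −20 in Rpl15, −27 in Rps7 and −13 in Rpl34, which is upstream of it. In Rps26 and Rpl28 it is at 244 and 188. The runs of Rps7, Rps26 and Rpl34 reach the edge of their window, so where they begin was not determined. Capitals mark runs of at least 8 pyrimidines and, in Rpl34, also a GGAC. The windows are at chr1:39367902-39367931 (plus) for Rpl31, chr14:18270963-18270992 (minus) for Rpl15, chr12:28635855-28635884 (minus) for Rps7, chr10:128626474-128626503 (minus) for Rps26, chr3:130730321-130730350 (minus) for Rpl34 and chr7:4793174-4793203 (plus) for Rpl28. That of Rpl15 is from replicate 1 and the others are from replicate 2.
Rpl31: cgcgCCCTTCCTTTCCTacttgggcccggc
Rpl15: agCCTTCTTCCTTTCCTCTggcggcagcca
Rps7: TCCCTCTTTCTaagccggcgatccgtcagg
Rps26: TCCTCTTTCgagtcttggctccaagatggt
Rpl34: TTCCTTTTCCTCTTCCggGGACggtgctca
Rpl28: cctgCCTCCTTTgctcaCCCTTTCCTCggc

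Across all sites shared by the replicates, with regions not matched, limma called ribosomal protein sites outside snoRNAs higher at a share near that of other genes before centring but not after it. Those inside snoRNAs were often lower. Sites can share a cluster of replicate 2, so that the 486 sites of ribosomal protein genes rest on 430 such clusters and all 59584 on 53361. Of 486 tested sites in 82 genes, 195 (40.1%) were higher in the IP at an adjusted p under 0.05, in 57 genes, beside 48.3% of all 59584 sites. Another 47 (9.67%) were lower, in 19 genes, beside 1.43% of all sites. The median of the mean log2 fold change was 0.67 for ribosomal protein sites and 0.92 for all sites, so most sites lie above 0 before centring. After centring each replicate on its own median over all tested sites, 31 of the 195 higher sites stayed higher, in 15 genes. All 47 lower sites stayed lower, among 100 lower ones. The shares over all sites were then 15.3% higher and 10.1% lower. These sets differ in their regions, with 25 of the 486 ribosomal protein sites in 3′UTRs, beside 13312 of all 59584. Shares after centring are not given by region. In the fits before and after centring, each p value rests on a variance pooled over sites by read number. The spread between the 2 replicates at the site itself had no weight in it. Without the pairing of each IP with its own SMInput, limma called 108 of 329 sites (32.8%) higher and 0 lower (163 and 0 at an unadjusted p under 0.05). Over all 44716 sites of that fit 44.2% were higher and 0 lower (0 lower also at an unadjusted p under 0.05). Sites listed at 0 have no recovered reads and drop out of it.

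Sites in snoRNAs gave the whole lower group. Of 96 tested sites in snoRNAs inside ribosomal protein genes, 47 (49%) were lower and 15 higher, with a median of −0.64, and after centring 66 were lower and 1 higher. The 47 lower sites rest on 34 clusters of replicate 2. Outside snoRNAs, 390 sites, of which 383 lay in exons, had a median of 0.81, beside 0.92 over all genes outside snoRNAs. Of these 390, 180 (46.2%) were higher and 0 lower, beside 48.5% and 1.12% over all genes, and after centring 30 (7.69%) were higher and 34 (8.72%) lower, beside 15.4% and 9.62%. At an unadjusted p under 0.05, limma gave 209 higher and 2 lower sites among the 390. By region, 19 of 25 sites in 3′UTRs (76%), 139 of 315 in the CDS (44.1%) and 19 of 44 in 5′UTRs (43.2%) were higher before centring. Over all genes these shares were 81.6%, 39.6% and 38.8%. The 44 sites in 5′UTRs include 1 in a snoRNA, which was lower. The medians of these regions were 1.10, 0.78 and 0.89, beside 1.66, 0.76 and 0.71. Of the 25 sites labelled 3′UTR, 11 lay inside the CDS of the main transcript, and 8 of these were higher.

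Values of the replicates rose together over these sites. Over 530 pairs of overlapping clusters in ribosomal protein genes, Pearson's r between the replicates' log2 fold changes was 0.688 and Spearman's rho 0.592. Over all 83829 pairs they were 0.632 and 0.592. Over 80 genes with at least 3 clusters in each replicate, the medians per gene had r = 0.622 and rho = 0.638. Sites of 1 gene share reads and libraries and are not independent.

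The snoRNAs lie on the same strand as their host gene, 58 of them in 30 ribosomal protein genes, and 54 had a cluster in each replicate. Their 107 and 86 clusters had medians of −0.57 and −0.60, with 66.4% and 68.6% listed at a −log10(P) of 0, and 0 were significant by the thresholds on each replicate. Classes were read from the symbol alone. In snoRNAs named as C/D box, which guide ribose methylation, 11 of 27 tested sites were lower and 3 higher before centring. In those named as H/ACA box, which guide pseudouridylation, 14 of 30 were lower and 7 higher. In the 26 with other names, left without a class, 22 of 39 were lower and 5 higher. The snoRNA genes elsewhere in the genome had similar values, with medians of −0.37 and −0.44 and 146 of 322 tested sites (45.3%) lower. Intron clusters of ribosomal protein genes outside snoRNAs, 51 and 22 in number, had medians of 2.08 and 1.93. A snoRNA here is a gene annotated with that type, so 1 cluster per replicate in Snord43 of Rpl3, annotated as a miRNA, counts as outside, with 1.35 and 0.68.

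The lowest site of any ribosomal protein gene was Snord100 in an intron of Rps12, a small-subunit protein, at chr10:23785758-23785801 on the minus strand. Its log2 fold change was −3.65 in replicate 1 and −3.19 in replicate 2, with a mean of −3.42 and a standard error of 0.22 (limma, adjusted p = 3.66e-53). This error and p value come from the variance pooled over sites, not from the spread at this site, which was picked as the lowest. The snoRNA Gm23344 in Rpl4, a large-subunit protein that lines the exit tunnel, had −2.98 and −2.04. Snord68 in Rpl13 had −2.24 and −2.25, Gm26202 in Rpl17 had −1.92 and −2.25, and Gm26448 in Rpsa had −2.24 and −1.99. These 5 sites were lower in both replicates, and lower also after centring.

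Rpsa, the laminin receptor precursor that is also a small-subunit protein, held snoRNAs of both directions. All 4 tested sites in its Snora62 were higher before centring, with medians per replicate of 1.07 and 0.92, and all 4 sites in its Gm24044 were lower, with a median of −0.65 in replicate 1 and 1 cluster at −0.79 in replicate 2 that all 4 share. After centring, limma called 0 of its 9 sites higher (0 at an unadjusted p under 0.05) and 5 lower. Rpl4, with 22 and 21 clusters the gene with the most, had 7 of 17 sites higher and 2 lower before centring, and 1 higher and 3 lower after it. Its higher sites included Snord16a, with 1.42 and 1.63 at chr9:64175440-64175477, and a pair of sites in Gm23136, while 0 of its clusters were significant. In Rpl32, chosen after its values were seen, Snora7a lies in an annotated 5′UTR, and its site had −1.72 and −2.37.

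Rps7, Rps18 and Rpl17 had sites called higher by limma but no overlapping significant clusters. In Rps7, a small-subunit protein that also binds Mdm2, 11 of 12 sites were higher before centring and 4 after it. In replicate 2 its CDS cluster at chr12:28635615-28635664 on the minus strand had 2.55 (52 IP and 32 SMInput reads) and the highest −log10(P) of any ribosomal protein cluster of that replicate, 17.8, while replicate 1 had 1.25 there. Its 5′UTR cluster had 2.55 in replicate 2 and 1.82 at the overlapping site in replicate 1. The significant cluster of Rps7 in replicate 1 was elsewhere, in an intron, at 4.08 (10 IP reads and 1 SMInput read, interval 1.27 to 9.52). Rps18 likewise had a significant intron cluster in replicate 1 and, in replicate 2, one labelled 3′UTR that lies inside the CDS of its main transcript. Of its 4 sites 2 were higher before centring and 0 after it. Rpl17, a large-subunit protein at the exit tunnel, had CDS clusters of 2.35 and 2.67 in replicate 1 that reached 1.26 and 1.71 in replicate 2. Of its 8 sites 5 were higher and 2 lower before centring, and 1 higher and 2 lower after it.

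The ribosomal stalk recruits translation factors, and its genes differed among themselves. Rplp1 had 5 of 5 sites higher before centring and 2 after it, with medians of 1.06 and 1.92. Rplp0, the stalk base, had 10 of 12 sites higher before centring and 1 after it, and its cluster at chr5:115563408-115563478 on the plus strand, at the stop codon, had 2.54 in replicate 1, where its centre lay in the 3′UTR, and 1.75 in replicate 2, where the centre of the overlapping cluster lay in the CDS. Rplp2, the partner of Rplp1, had medians of 0.30 and 0.34, with 3 of 9 sites higher by limma before centring, and 5 lower and 0 higher after it (0 higher at an unadjusted p under 0.05). Its Snora52 held 3 of these sites and 3 clusters in each replicate. Outside it the medians of Rplp2 were 0.49 and 0.61, with 3 of 6 sites higher before centring and 2 lower after it. Among genes whose protein starts as a fusion with ubiquitin or a ubiquitin-like protein, Rps27a had medians of 0.95 and 0.78 and Fau of 0.11 and 1.16, and none of their clusters was significant in either replicate.

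The paralogs of testis and other tissues stood beside their partner genes as follows. Rpl39l, a copy of Rpl39 expressed in male germ cells, had 12 and 6 clusters with medians of 1.66 and 1.58, and all 6 tested sites were higher before centring and 2 after it. They ran from its 5′UTR, at chr16:10170242-10170325 on the plus strand (1.71 and 1.54), through its CDS, at 10174356-10174409 (1.69 and 1.90), to its 3′UTR, at 10174512-10174609 (1.39 and 1.60). X-linked Rpl39 had 3 clusters in each replicate with medians of 1.35 and 0.85, and 0 of 3 sites were higher by limma (2 at an unadjusted p under 0.05). Its intronic Snora69 held 2 of these sites, 2 of the clusters of replicate 1 and 1 of replicate 2, so that 1 site is left for the rest of the gene. None of the 50-base windows of the Rpl39l mRNA had an exact copy elsewhere in the genome.

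Rps27l, a p53 target, had medians of 1.30 and 1.63, with clusters labelled 3′UTR of 3.43 (9 IP and 3 SMInput reads, centre inside the CDS of the main transcript) and 2.43 in replicate 2, and Rps27 had 1.67 and 1.26 with a CDS cluster of 2.35 in replicate 1. Rpl7l1 had medians of 1.72 and 1.43 and Rpl7 of −0.50 and 0.32. Rpl22l1 had 0.24 and 0.15, Rpl22 0.51 and 1.31, Rpl36al −0.14 and 1.64, and Rpl36a 0.76 and 0.26. The last 6 genes had 0 significant clusters and, by limma before centring, 0 higher and 0 lower sites (0 of either at an unadjusted p under 0.05) among the 1 to 5 tested per gene, while 2 of 3 sites of Rpl22 were lower after centring. At an adjusted p over 0.05, these values do not show that IP and input were equal.

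Significant clusters of single replicates added further genes, chosen here after their values were seen. In 3′UTRs, Rps28 (2.41) and Rpl12 (2.44) had one in replicate 1. Rpl9 had 2.52 in replicate 2, with 27 IP and 17 SMInput reads, at a stretch that is 3′UTR in another transcript but CDS in its main one. In the CDS, Rps15a had 2.59 in replicate 2 (15 IP and 9 SMInput reads), with 1.86 at the overlapping stretch in replicate 1. Rpl29, whose 5′UTR cluster at chr9:106429535-106429601 on the plus strand had 34 IP and 12 SMInput reads in replicate 1, had medians of 1.38 and 1.87 over its 5 and 8 clusters, and 5 of 5 sites were higher before centring and 1 after it.

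Other mRNAs known for an oligopyrimidine tract, which encode elongation factors and other parts of the translation machinery, had higher medians as a list than the ribosomal protein genes, snoRNA clusters included. In 19 such genes, 24 of 383 clusters (6.27%) and 30 of 350 (8.57%) were significant, with medians of 0.91 and 1.12, and 156 of 260 sites (60%) were higher and 7 lower before centring. Pabpc1, the poly(A)-binding protein, held 12 and 8 of these significant clusters, and Eif3e, a subunit of an initiation factor, held 5 and 4. Nuclear-encoded mitochondrial ribosomal proteins, 78 genes, had 30 of 679 (4.42%) and 53 of 408 clusters (13%) significant, with a median of 1.57 in replicate 2. Ribosome biogenesis genes, 27 in number, had medians of 0.94 and 0.85, and translation initiation factors, 55 in number, 1.18 and 1.11. The ribosomal protein genes, snoRNA clusters included, had medians of 0.60 and 0.81. At tested sites the ribosome biogenesis genes had the lower median, 0.21 beside 0.67, with 18 of 100 sites higher before centring. No list was tested against another.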

How the data were processed

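IGF2BP3 eCLIP-seq was measured in testes of 8-week-old mice, in 2 replicates with an IP and an SMInput library each. Per the study's methods and the submitters' notes, reads were trimmed with cutadapt, cleared of ribosomal RNA with Bowtie2, aligned to mm10 with STAR, collapsed by unique molecular identifiers and called into clusters. In the deposited tables, −log10 stands for the P value the authors gave IP against SMInput reads in a cluster, listed between 0 and 400. The deposited log2 values are the authors' fold changes of IP over SMInput reads of the same replicate, scaled to usable reads. Only called clusters are listed.

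Read numbers and library totals were recovered as the whole numbers that return both listed values, with Fisher's exact test where a number was under 5 and a chi-square test otherwise. A single solution was found for 99.8% and 99.9% of clusters listed between the limits, and the rest and those listed at 0 have no recovered reads, so the fewest reads that give their fold change stood in for the read filter and the variance trend. Intervals cover counting error only. Regions were assigned from GENCODE basic transcripts in the order 3′UTR, CDS, 5′UTR and intron. Clusters of both replicates that overlapped by at least 1 base formed sites, each cluster of replicate 1 with the one of replicate 2 that shares most bases, and each IP was set against the SMInput of its own replicate. Sites with at least 10 reads in each replicate were tested with limma 3.58.1 in R 4.3.3, with a variance trend on reads and Benjamini-Hochberg adjustment over all sites. Python 3.11.15, pandas 2.3.3, numpy 2.4.6, SciPy 1.17.1 and pysam 0.24.0 did the rest. Read recovery and limma were tested on simulated data.

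Named genes were those with overlapping significant clusters, the 5 with the most significant clusters in each replicate, the 5 with the highest and the 5 with the lowest mean at a site, the 5 with the most clusters, paralogs and partners, the stalk with Rpsa, and ubiquitin fusions, and not every gene under these rules is printed. The other lists were oligopyrimidine tract mRNAs, ribosome biogenesis, mitochondrial ribosomal proteins, initiation factors and cell type markers. The members and lists were chosen with earlier results of these data known. Alternatives were other thresholds, gene assignments, overlaps, read filters, variance models, zero points, each replicate alone and no pairing. Protein sequences were left out because no table of them was at hand, and sequence from chromosome 18 was not printed.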

Additional observations from a re-analysis of the deposited data

How the results depend on the processing

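Of 60 values under alternatives, 38 stayed near the reported value, 22 moved and 0 reversed. Only medians could be labelled reversed, since most values were counts, which could only stay near or move. The label of staying near was a wide one. With −log10(P) of at least 3, a change from 18 to 12 genes in replicate 1 counted as near, and one from 25 to 15 in replicate 2 as moved. A change of the median of replicate 2 from 0.81 to 0.95 counted as near. With both thresholds at 3, replicate 1 had 1 significant cluster in 1 gene, replicate 2 had 3 in 2 genes, and 0 genes had overlapping ones. With the log2 threshold at 1 these were 100 clusters in 43 genes, 152 clusters in 55 genes and 24 genes. With −log10(P) of at least 3 and the fold change threshold kept, replicate 1 had 16 clusters and replicate 2 had 15 genes. These follow from the thresholds themselves. Without clusters in another gene of the same strand, which include the snoRNAs, the median of replicate 1 was 0.76 in place of 0.60. Without the replicate block, limma gave 108 higher and 0 lower sites (163 and 0 at an unadjusted p under 0.05), over the 329 sites with recovered reads in every library, which leaves out the sites listed at 0, beside 0 lower of all 44716 sites. Centring gave 31 higher and 100 lower sites. Leaving out sites in snoRNAs, an alternative chosen after seeing the data, gave 0 lower sites with limma (2 at an unadjusted p under 0.05). With 1 replicate alone and no test, 96 to 137 sites passed the study's P value threshold, 96 without replicate 2 and 137 without replicate 1, and lower sites could not be counted, as they are listed at 0. The cause of the difference between replicates was not tested.

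Depth limits single clusters, since 4 significant clusters of replicate 1 and 14 of replicate 2 rest on fewer than 10 IP reads. Sites without a listed cluster in each replicate could not be tested. The tables do not show how reads that align to several places were counted in mRNAs with copies elsewhere in the genome.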

Other observations

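Cell type markers were covered unevenly by clusters and by significant ones. Among spermatid genes, which package and move the sperm head and tail, Prm1, Prm2, Tnp1 and Tnp2 had 7 to 10 clusters in each replicate and 0 significant ones. Smcp, a protein of the sperm mitochondrial capsule, had 13 of 17 significant in replicate 1 and 15 of 17 in replicate 2, and Acrv1, an acrosomal protein, had 5 of 15 and 3 of 8. Among spermatocyte genes, Sycp3 had 22 and 20 clusters and Piwil1 34 and 28, with 0 significant, and Sycp1 had 132 and 108 with 0 and 6 significant. In germ cells Dazl had 14 of 24 and 10 of 20 significant and Ddx4 11 of 75 and 7 of 76.

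Genes of somatic cells had clusters too. The Sertoli cell genes Clu (27 and 33), Sox9 (7 and 8) and Amh (1 and 3) had 0 significant clusters, and Wt1 had 0 of 82 and 6 of 65. The Leydig cell genes Cyp17a1 (8 and 9), Cyp11a1 (6 and 11), Hsd3b1 (10 and 4) and Star (2 in each) had at most 1 significant cluster in a replicate, and Insl3 had 0 and 3. The peritubular genes Acta2 (16 and 13) and Myh11 (34 and 13) had 0 and 1 and 1 and 2. The blood gene Ptprc had 4 and 2 clusters, with 0 significant.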
